A study of Mus musculus with 6 samples.

Results

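The genes described here are 10 mouse genes whose products have been linked to the movement of platinum drugs or copper across membranes, of 54446 genes measured. The rule lists them by name and by what their proteins do and uses no measured value, but it was written with earlier results of these data known. They comprise the copper uptake genes Slc31a1 and Slc31a2, the copper ATPases Atp7a and Atp7b, the copper chaperones Atox1 and Ccs, the volume-regulated channel subunits Lrrc8a and Lrrc8d, the ABC exporter Abcc2 and the organic cation transporter Slc22a3.

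RNA was measured in TRAMP-C2, an established prostate cancer cell line from a male C57BL/6 mouse. The 3 groups had 2 libraries each and were cells without drug (control), cells given 2 µM oxaliplatin and cells given 2 µM cisplatin, with 24 h of treatment. All groups were of the same line and differed, by the labels, only in the agent. The labels do not say whether the replicates were separate cultures, so p values measure the spread between these libraries, which may be technical.

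Copper enters cells mainly through CTR1, the protein of Slc31a1, and is passed by chaperones to the enzymes and pumps that use it. The ATPases then move copper into the secretory pathway or out of the cell. Platinum drugs are known to bind several of these proteins, and LRRC8 channels, organic cation transporters and ABC exporters have been studied as further routes for them. Cisplatin carries ammine and chloride ligands, whereas oxaliplatin carries a diaminocyclohexane carrier ligand and an oxalate group.

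Slc31a1 and Slc31a2 are neighbours on chromosome 4 of GRCm38, on the same strand, with 62315 bp between them. The 250 bases before the RefSeq start of each (assembly GRCm38.p6, + strand) are shown. The Slc31a1 window lies before the annotated gene, which begins at 62360727. The Slc31a2 window lies inside the annotated gene (62262562 to 62298411), so it is not upstream of the whole gene as counted. These windows were picked because Slc31a1 fell with oxaliplatin and Slc31a2 did not pass the test. A difference between these genes in their change was not tested, and for both the oxaliplatin libraries were the lowest. Capitals mark a GC box (GGGCGG) in the Slc31a1 window at chr4:62360451-62360700, and the core of a metal response element (TGCACNC or TGCGCNC) in the Slc31a2 window at chr4:62286179-62286428.
Slc31a1: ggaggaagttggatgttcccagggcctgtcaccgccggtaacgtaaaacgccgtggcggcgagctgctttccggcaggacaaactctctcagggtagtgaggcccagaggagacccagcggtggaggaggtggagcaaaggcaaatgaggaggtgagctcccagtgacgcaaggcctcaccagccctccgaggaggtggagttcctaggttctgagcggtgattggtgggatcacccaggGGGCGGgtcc
Slc31a2: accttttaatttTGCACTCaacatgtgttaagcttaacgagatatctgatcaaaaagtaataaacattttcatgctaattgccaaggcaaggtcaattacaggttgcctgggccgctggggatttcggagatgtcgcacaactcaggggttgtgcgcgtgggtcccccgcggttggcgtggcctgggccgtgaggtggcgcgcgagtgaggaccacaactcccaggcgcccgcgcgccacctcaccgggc
Searched on both strands, the Slc31a1 window held 1 GC box and 0 metal response element cores, and the Slc31a2 window held 0 and 1. The GC box was found in 32.7% and the metal response element core in 21.4% of 32851 promoter windows of that length, and no match in these windows overlapped another motif. Each match is a description of letters, not of a bound site.

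Of the 10 genes, 8 had enough reads to test, where a gene needed at least 10 counts in at least 2 libraries. Abcc2, an exporter of conjugated compounds on chromosome 19 (43782192 to 43840740, + strand), had 1, 1, 0, 1, 2 and 1 counts in the control, oxaliplatin and cisplatin libraries, in that order. Slc22a3, the organic cation transporter OCT3 on chromosome 17 (12418960 to 12507704, - strand), had 0 counts in every library, which allows a level below 0.125 to 0.141 CPM, or counts relative to each library total, from counting error alone. The exons of Slc22a3 overlap those of the opposite-strand gene Plg, which was also at 0. No change of either gene was detectable at this depth of 21345312 to 24041767 counts per library.

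Levels between genes were compared as normalised counts (counts divided by the library's size factor) per kilobase of merged exon. In control cells Atox1, which hands copper to the ATPases, had the highest level of the 8 genes, with 1761 ± 129 normalised counts per kilobase (SD, n = 2). Slc31a1 followed with 342 ± 1.19 and Ccs, the chaperone that loads copper into superoxide dismutase, with 339 ± 35.3 (SD, n = 2), and these neighbours in the order did not differ beyond their spread. Lrrc8a had 148 ± 4.09, Slc31a2 104 ± 7.69 and Atp7a 46.5 ± 5.58 normalised counts per kilobase (SD, n = 2). Lrrc8d had 12.7 ± 0.502 and Atp7b 2.09 ± 0.253 (SD, n = 2), so that Atp7a was the more abundant of the ATPase transcripts. With the length of the longest coding transcript in place of merged exons, an alternative chosen after the data were seen, Ccs had 566 and Slc31a1 352 normalised counts per kilobase, and Ccs then stood above Slc31a1. Lrrc8d then had 40.5 and Atp7a 82.8, with their places in the order kept.

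**Figure D1:**
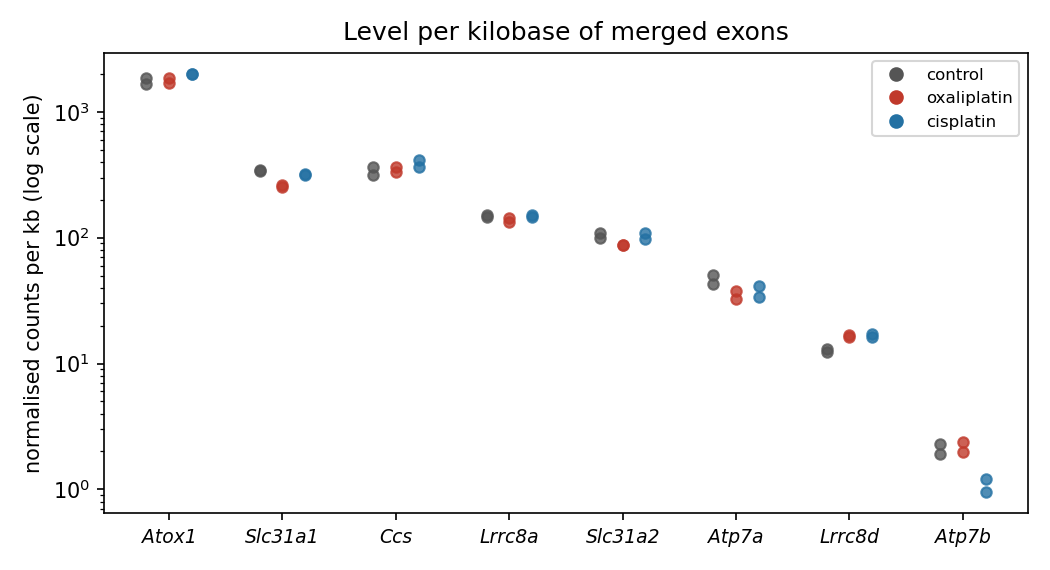
Level of the 8 tested genes in normalised counts per kilobase of merged exon (log axis), with a point per library, 2 in each of the groups (grey control, red oxaliplatin, blue cisplatin). Atox1 stood highest, at 1761 in control cells, and Atp7b lowest, at 2.09.

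Between oxaliplatin and control cells, 1 of the 8 tested genes passed the test (DESeq2 adjusted p under 0.05, here called a change), and this was Slc31a1, which fell. Atp7b was tested but had no adjusted p in any comparison. Among all 14956 genes tested, 20.2% were called with oxaliplatin against control, 10.7% higher and 9.50% lower. For 5 of the 8 tested genes both oxaliplatin libraries lay outside the control range, against 64.8% of all genes tested. The 3 genes with an unadjusted p under 0.05 were Slc31a1, Atp7a and Lrrc8d, and the median log2 fold change of the 8 genes was -0.05 against -0.0029 for all genes tested.

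Between cisplatin and control cells, 0 of the 8 tested genes were called by DESeq2, where 28.1% of all genes tested were called, 15.7% higher and 12.4% lower. Lrrc8d alone had an unadjusted p under 0.05, and edgeR's quasi-likelihood test called 1. Over all 14956 genes tested, the most calls under any alternative setting in this comparison were 6112. For 6 of the 8 genes the groups stood apart, against 69.4% of all genes tested. The median log2 fold change of the 8 genes was -0.0022.

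Oxaliplatin and cisplatin were given at the same dose and time, so their libraries form 1 pair of compounds to compare directly. Between them 1 of the 8 tested genes was called, Slc31a1, which was lower with oxaliplatin. Of all genes tested 19.9% were called, 8.62% higher and 11.3% lower with oxaliplatin, and 5 of the 8 genes had no overlap between the drugs, against 68.0% of all genes. The median log2 fold change of the 8 genes was -0.14 against -0.0033 for all genes tested. Scaling by total counts changed the share of higher calls among all called genes from 56.0% to 43.4% in cisplatin against control and from 43.3% to 54.3% in oxaliplatin against cisplatin. The comparisons with control share the 2 control libraries, and those of the drugs share each drug's own libraries, so their values are given side by side and not correlated.

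Slc31a1 (ENSMUSG00000066150, chromosome 4, 62360727 to 62391769, + strand) encodes the copper importer CTR1. Its locus overlaps the opposite-strand gene Cdc26, but their exons do not overlap. Its normalised counts were 1467 and 1460.1 in control cells, 1074 and 1115 with oxaliplatin, and 1364 and 1352 with cisplatin. Both oxaliplatin libraries lay below all 4 others, and both cisplatin libraries lay below both controls. With oxaliplatin it fell by 25.2% against control, a log2 fold change of -0.42 ± 0.08 (SE, adjusted p = 1.33e-06, DESeq2). With cisplatin the log2 fold change was -0.11 ± 0.08 (SE, 95% confidence interval -0.26 to 0.04), with an adjusted p of 0.302 (DESeq2). The level with oxaliplatin differed from that with cisplatin by -0.31 ± 0.08 on the log2 scale (SE, 95% confidence interval -0.46 to -0.16), with an adjusted p of 6.61e-04 (DESeq2). In bulk RNA, fewer cells that use a gene and less of its RNA per cell cannot be told apart.

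The fall of Slc31a1 with oxaliplatin against control was called under all 14 alternatives, with log2 fold changes from -0.45 to -0.39. The difference from cisplatin was called in 11 of 14. It was no longer called without oxaliplatin replicate 1 (DESeq2 adjusted p = 0.112), without cisplatin replicate 1 (0.0750) or without cisplatin replicate 2 (0.0559), where the log2 fold changes were -0.28, -0.31 and -0.32.

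**Figure D2:**
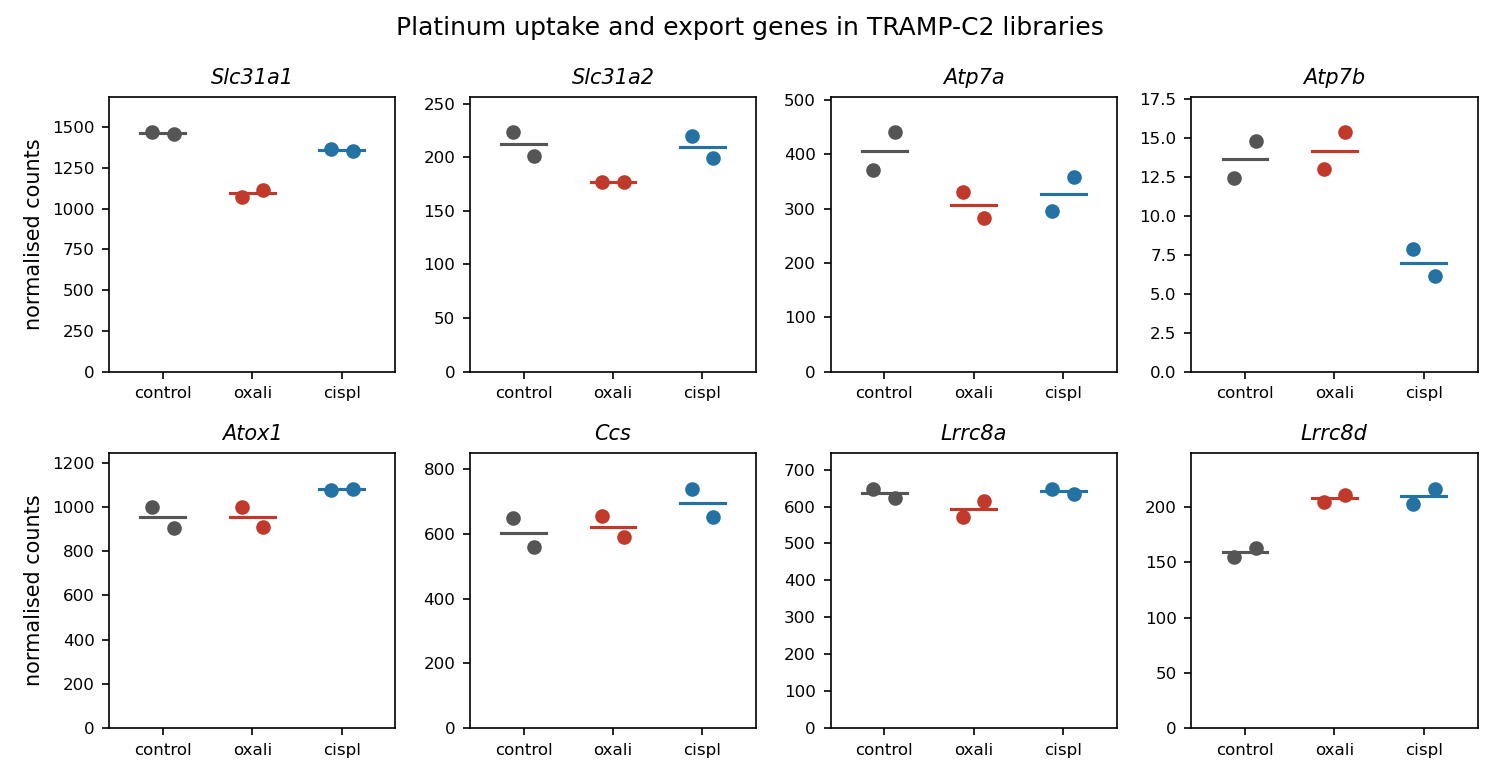
Normalised counts of the 8 tested genes, a panel per gene with its own axis, with a point for each library and a line at each group's mean. For Slc31a1 the oxaliplatin libraries, at 1074 and 1115, lay below the other 4.

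Slc31a2 (ENSMUSG00000066152, chromosome 4, 62262562 to 62298411, + strand) encodes CTR2, a relative of CTR1 that sits largely on internal membranes. It had 223 and 201 normalised counts in control cells, 176 and 177 with oxaliplatin, and 219.6 and 199.5 with cisplatin. The oxaliplatin libraries were the lowest of the 6, and the control and cisplatin libraries overlapped. Against control the log2 fold change was -0.26 ± 0.19 with oxaliplatin (SE, adjusted p = 0.363) and -0.02 ± 0.19 with cisplatin (SE, adjusted p = 0.966, DESeq2). Oxaliplatin differed from cisplatin by -0.25 on the log2 scale, with a 95% confidence interval of -0.63 to 0.14 and a DESeq2 adjusted p of 0.396.

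Atp7a (ENSMUSG00000033792, chromosome X, 106027276 to 106124926, + strand) encodes the copper ATPase that serves most tissues. Its normalised counts were 371 and 440.4 in control cells, 331 and 282 with oxaliplatin, and 296 and 358 with cisplatin. Libraries of both drugs lay below both controls. The log2 fold change was -0.40 ± 0.18 with oxaliplatin (SE, 95% confidence interval -0.75 to -0.06, DESeq2 adjusted p = 0.0747) and -0.31 ± 0.18 with cisplatin (SE, adjusted p = 0.170). The first was called by edgeR (adjusted p = 0.0267) and by DESeq2 on genes with at least 10 counts in every library (adjusted p = 0.0438). Between the drugs the difference was -0.09 ± 0.18 on the log2 scale (SE, adjusted p = 0.769 by DESeq2).

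Atp7b (ENSMUSG00000006567, chromosome 8, 21992785 to 22060305, - strand) encodes the ATPase best known from the liver, where it loads copper for export into bile. Its rounded counts were 12 and 15 in control cells, 14 and 15 with oxaliplatin, and 8 and 6 with cisplatin. The cisplatin libraries were the lowest of the 6, but DESeq2 gave no adjusted p at this level. The log2 fold change with cisplatin was -0.96 ± 0.80 (SE, 95% confidence interval -2.54 to 0.62), an interval that holds 0. Between the drugs the log2 difference was 1.02 ± 0.80 (SE, 95% confidence interval -0.55 to 2.59), also without an adjusted p.

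Atox1 (ENSMUSG00000018585, chromosome 11, 55446641 to 55461239, - strand) had 1002 and 903 normalised counts in control cells, 1002 and 911 with oxaliplatin, and 1078 and 1084 with cisplatin. Both cisplatin libraries were the highest, while oxaliplatin and control libraries covered the same range. The log2 fold change was 0.01 ± 0.10 with oxaliplatin (SE, 95% confidence interval -0.19 to 0.20, adjusted p = 0.978) and 0.18 ± 0.10 with cisplatin (SE, 95% confidence interval -0.01 to 0.38, adjusted p = 0.155, DESeq2). Ccs (ENSMUSG00000034108, chromosome 19, 4825366 to 4839332, - strand) had 649 and 559.6 normalised counts in control cells, 655 and 589 with oxaliplatin, and 740.1 and 653 with cisplatin. Its cisplatin libraries lay above both controls and did not pass the test, with a log2 fold change of 0.21 ± 0.13 (SE, adjusted p = 0.235 by DESeq2). With oxaliplatin it was 0.04 ± 0.13 (SE, adjusted p = 0.863 by DESeq2). Between the drugs the 95% confidence interval of the log2 difference was -0.37 to 0.02 for Atox1 and -0.42 to 0.09 for Ccs.

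Lrrc8a and Lrrc8d encode subunits of the volume-regulated anion channel, in which LRRC8A is required and LRRC8D widens the range of substrates. Lrrc8d (ENSMUSG00000046079, chromosome 5, 105699969 to 105832436, + strand) had 155 and 164 normalised counts in control cells, 205 and 211 with oxaliplatin, and 203 and 217 with cisplatin. All 4 drug libraries lay above both controls, and the drugs' libraries covered the same range. The log2 fold change was 0.39 ± 0.20 with oxaliplatin (SE, unadjusted p = 0.0484, adjusted p = 0.142) and 0.40 ± 0.20 with cisplatin (SE, unadjusted p = 0.0414, adjusted p = 0.108), both by DESeq2. By edgeR both were called, with adjusted p values of 0.0134 and 0.00936. Between the drugs the difference was -0.01 on the log2 scale, with a 95% confidence interval of -0.39 to 0.36. The Lrrc8d locus overlaps the opposite-strand pseudogene Rps15a-ps5, which had 393 to 776 counts, but their exons do not overlap. The antisense gene Lrrc8dos, which overlaps the exons of Lrrc8d, had 0 counts in every library.

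Lrrc8a (ENSMUSG00000007476, chromosome 2, 30237715 to 30263790, + strand) had 649 and 624 normalised counts in control cells, 572 and 614 with oxaliplatin, and 648 and 634 with cisplatin. The oxaliplatin libraries were the lowest, with a log2 fold change of -0.10 ± 0.11 against control (SE, adjusted p = 0.579, DESeq2), and with cisplatin it was 0.01 ± 0.11 (SE, adjusted p = 0.956). The drugs differed on the log2 scale by -0.11, with a 95% confidence interval of -0.33 to 0.11. Lrrc8a shares exons with the same-strand gene Gm28035, which had 31.9 to 97.0 counts, so its values depend on how reads were divided between them and are uncertain. The antisense gene 1700084E18Rik, which overlaps its exons, had 4 to 9 counts.

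**Figure D3:**
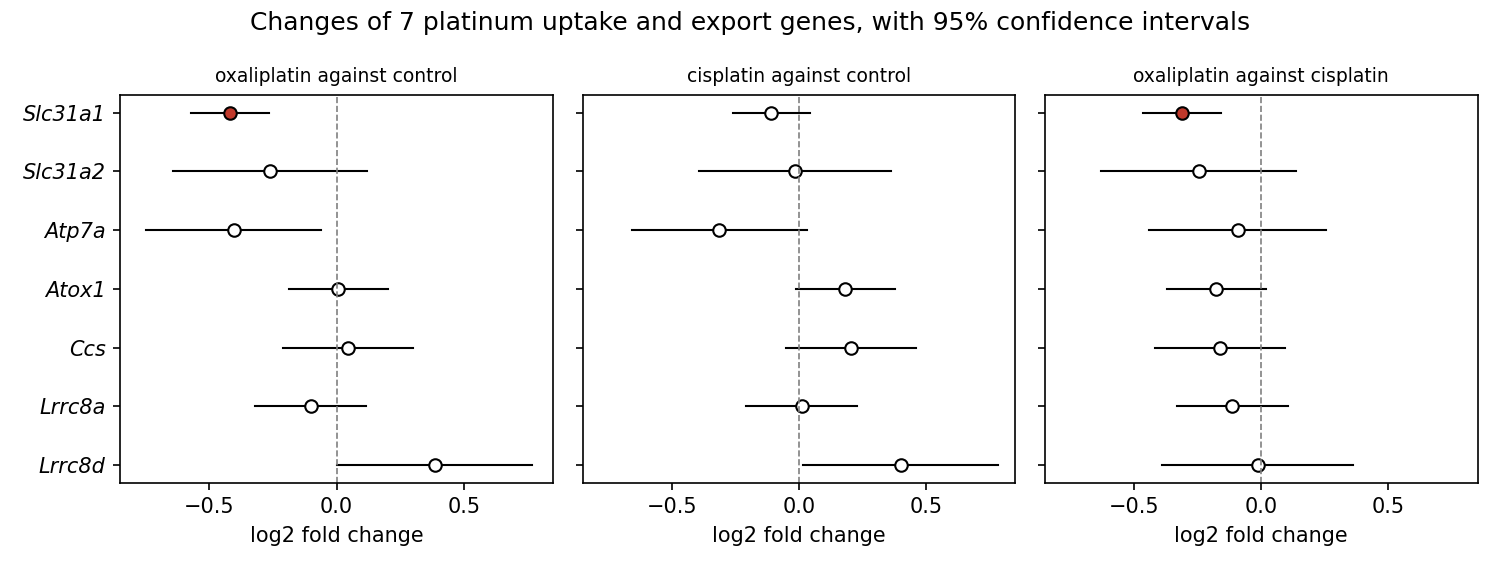
Log2 fold changes of the 7 genes with an adjusted p, with 95% confidence intervals, for oxaliplatin against control, cisplatin against control and oxaliplatin against cisplatin. The intervals of Slc31a1 for oxaliplatin lie below 0 in both comparisons, from -0.57 to -0.27 against control and from -0.46 to -0.16 against cisplatin.

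Promoter windows were found for 9 of the 10 genes, in 10 windows of 250 bases. The 8 windows of the 7 detected genes held 56.0% to 73.6% G and C and 13 to 27 CG pairs. The window of Slc22a3 held 51.2% G and C with 5 CG pairs, and that of Abcc2 45.6% with 1 CG pair. Lrrc8a held 3 GC boxes, and GC boxes were also found for Lrrc8d (1 and 2 in its windows), Atox1 (1) and Atp7a (1). Metal response element cores were also found for Lrrc8d (0 and 3 in its windows), Atp7a (2) and Atp7b (1).

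The genes whose levels over the 6 libraries were most like those of Slc31a1 were Creld1, Btd and Gnai1, each with a Pearson r of 0.998 on log2(normalised count + 1), among 10730 genes with a mean of at least 100 normalised counts. An r over 0.95 was reached by 283 genes. The 6 points are of 3 groups and share their libraries, and the r values are descriptions.

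A further 35 genes of copper handling, LRRC8 channels, cation transport and ABC export were listed, of which 29 were tested. Of these, 10 were called in oxaliplatin against control (5 higher, 5 lower), 8 in cisplatin against control (5 higher, 3 lower) and 6 between the drugs (2 higher, 4 lower with oxaliplatin). These counts of 29 stand beside 20.2%, 28.1% and 19.9% of all genes tested. All 16 copper handling genes were tested, and with oxaliplatin 1 rose and 4 fell, while with cisplatin 1 rose and 2 fell, beside the same shares of 20.2% and 28.1% of all genes called.

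Sod1, the cytosolic copper-zinc superoxide dismutase that receives copper from Ccs, had 9673 and 9225 normalised counts in control cells, 7554 and 7374 with oxaliplatin, and 9581 and 9315 with cisplatin. The oxaliplatin libraries lay below the other 4, and Sod1 fell against control, with a log2 fold change of -0.34 ± 0.04 (SE, adjusted p = 1.41e-13, DESeq2). Against cisplatin the value was -0.34 ± 0.04 (SE, adjusted p = 1.54e-13, DESeq2). With cisplatin against control its 95% confidence interval was -0.08 to 0.08 on the log2 scale.

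Slc25a3, a mitochondrial carrier of phosphate that also brings in copper, had 8719.8 and 8246 normalised counts in control cells, 9572 and 9879.6 with oxaliplatin, and 10657 and 10822 with cisplatin. It rose with both drugs, by a log2 fold change of 0.20 ± 0.04 with oxaliplatin (SE, adjusted p = 5.80e-05) and 0.34 ± 0.04 with cisplatin (SE, adjusted p = 1.09e-13, DESeq2). It was lower with oxaliplatin than with cisplatin (DESeq2 adjusted p = 0.00544), a call that was lost without oxaliplatin replicate 1 (0.236) or 2 (0.0572), or without cisplatin replicate 1 (0.0751) or 2 (0.139). Sod1 against control and against cisplatin, and Slc25a3 against control, were called in 14 of 14 alternatives.

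The metallothionein gene Mt2 and the ferroxidase gene Cp fell with oxaliplatin, with log2 fold changes of -0.29 ± 0.08 (SE, adjusted p = 0.00130) and -0.22 ± 0.06 (SE, adjusted p = 0.00340, DESeq2). The call of Mt2 was lost without control replicate 1 (DESeq2 adjusted p = 0.0960) or oxaliplatin replicate 1 (0.0584) or 2 (0.0875), and that of Cp without control replicate 1 (0.0681) or 2 (0.0997) or oxaliplatin replicate 1 (0.121) or 2 (0.156). Between the drugs neither Mt2 (DESeq2 adjusted p = 0.0547) nor Cp (0.0579) passed the test. Mt1, Commd1 and Steap2 are named after their values were seen. Mt1 fell with oxaliplatin, a call lost without control replicate 1 (DESeq2 adjusted p = 0.230) or oxaliplatin replicate 1 (0.117) or 2 (0.0530). Between the drugs Commd1 and Steap2 were higher with oxaliplatin, by 0.38 ± 0.11 and 0.19 ± 0.07 on the log2 scale (SE, adjusted p = 0.00395 and 0.0220, DESeq2). These differences were called in 11 and 10 of 14 alternatives. Against control Commd1 and Steap2 fell with cisplatin and were called in 7 and 6 of 14 alternatives. The call of Commd1 was lost when any 1 of the 6 libraries was left out (DESeq2 adjusted p from 0.0641 to 0.329), and that of Steap2 on leaving out any 1 except cisplatin replicate 2 (0.0589 to 0.473).

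Of the 3 other LRRC8 subunits, Lrrc8c rose with oxaliplatin (log2 fold change 0.26 ± 0.08 SE, adjusted p = 0.00429 by DESeq2) and Lrrc8b fell with cisplatin (-0.58 ± 0.21 SE, adjusted p = 0.0245 by DESeq2). With oxaliplatin Lrrc8b had a log2 fold change of -0.49 ± 0.21 (SE, adjusted p = 0.0725 by DESeq2). Lrrc8e had 164 and 174 normalised counts in control cells and 122 to 126 in the 4 drug libraries, with DESeq2 adjusted p values of 0.151 with oxaliplatin and 0.110 with cisplatin. By edgeR all 3 of these subunits were called with oxaliplatin and 2 with cisplatin. Over all 14956 genes tested edgeR called 4618 with oxaliplatin, and the most calls under any alternative setting with cisplatin were 6112. The call of Lrrc8c was lost without control replicate 1 (DESeq2 adjusted p = 0.104) or 2 (0.0556), or oxaliplatin replicate 1 (0.180) or 2 (0.119). Between the drugs the DESeq2 adjusted p was 0.121 for Lrrc8c and 0.830 for Lrrc8b. The call of Lrrc8b was lost without control replicate 2 (0.431), oxaliplatin replicate 1 (0.0651) or 2 (0.0636), or cisplatin replicate 1 (0.0991) or 2 (0.282).

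The ABC exporters held 9 genes, of which 8 were tested. With oxaliplatin 3 rose and 1 fell, and with cisplatin 4 rose, where 20.2% and 28.1% of all genes tested were called in either direction. Abcb1b, a P-glycoprotein gene, had 668 and 681 normalised counts in control cells, 1103 and 936 with oxaliplatin, and 1028 and 1003 with cisplatin. All 4 drug libraries lay above the controls, and Abcb1b rose by a log2 fold change of 0.60 ± 0.11 with oxaliplatin (SE, adjusted p = 8.56e-07) and 0.59 ± 0.11 with cisplatin (SE, adjusted p = 9.59e-07, DESeq2). The difference between the drugs was 0.01 ± 0.11 on the log2 scale, with a 95% confidence interval of -0.20 to 0.22. Abcb1b lies beside the similar gene Abcb1a, so its reads are uncertain. Abcb1a was given 10.4 to 15.8 normalised counts per library.

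Abcc5, an exporter of cyclic nucleotides, had 2545 and 2701 normalised counts in control cells, 2770.3 and 2698 with oxaliplatin, and 3232 and 3493 with cisplatin. It rose with cisplatin (log2 fold change 0.36 ± 0.06 SE, adjusted p = 5.32e-07 by DESeq2), and was lower with oxaliplatin than with cisplatin (-0.30 ± 0.06 SE, adjusted p = 5.35e-05 by DESeq2). Abcb1b against control, and Abcc5 with cisplatin against both others, were called in 14 of 14 alternatives. Abcg2, a half-size exporter of many drugs, rose with oxaliplatin (0.25 ± 0.07 SE, adjusted p = 0.00324 by DESeq2), a call lost without control replicate 1 (0.112) or oxaliplatin replicate 1 (0.158) or 2 (0.109). Abcc1, a multidrug exporter, rose with cisplatin (0.21 ± 0.06 SE, adjusted p = 0.00197 by DESeq2), a call lost without control replicate 1 (0.0862) or cisplatin replicate 2 (0.110). Abcc1 with oxaliplatin (adjusted p = 0.0478) and Abcg2 with cisplatin (adjusted p = 0.0453) stood near the threshold by DESeq2 and were called in 3 and 2 of 14 alternatives. Neither passed the test between the drugs, with DESeq2 adjusted p values of 0.487 for Abcc1 and 0.501 for Abcg2. Abcc3, named after its values were seen, fell with oxaliplatin against control (adjusted p = 0.0330 by DESeq2) and was called in 5 of 14 alternatives. That call was lost when any 1 of the 6 libraries was left out. Abcc3 was also lower with oxaliplatin than with cisplatin (-0.58 ± 0.18 SE, adjusted p = 0.00685 by DESeq2), a difference called in 9 of 14 alternatives.

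**Figure D4:**
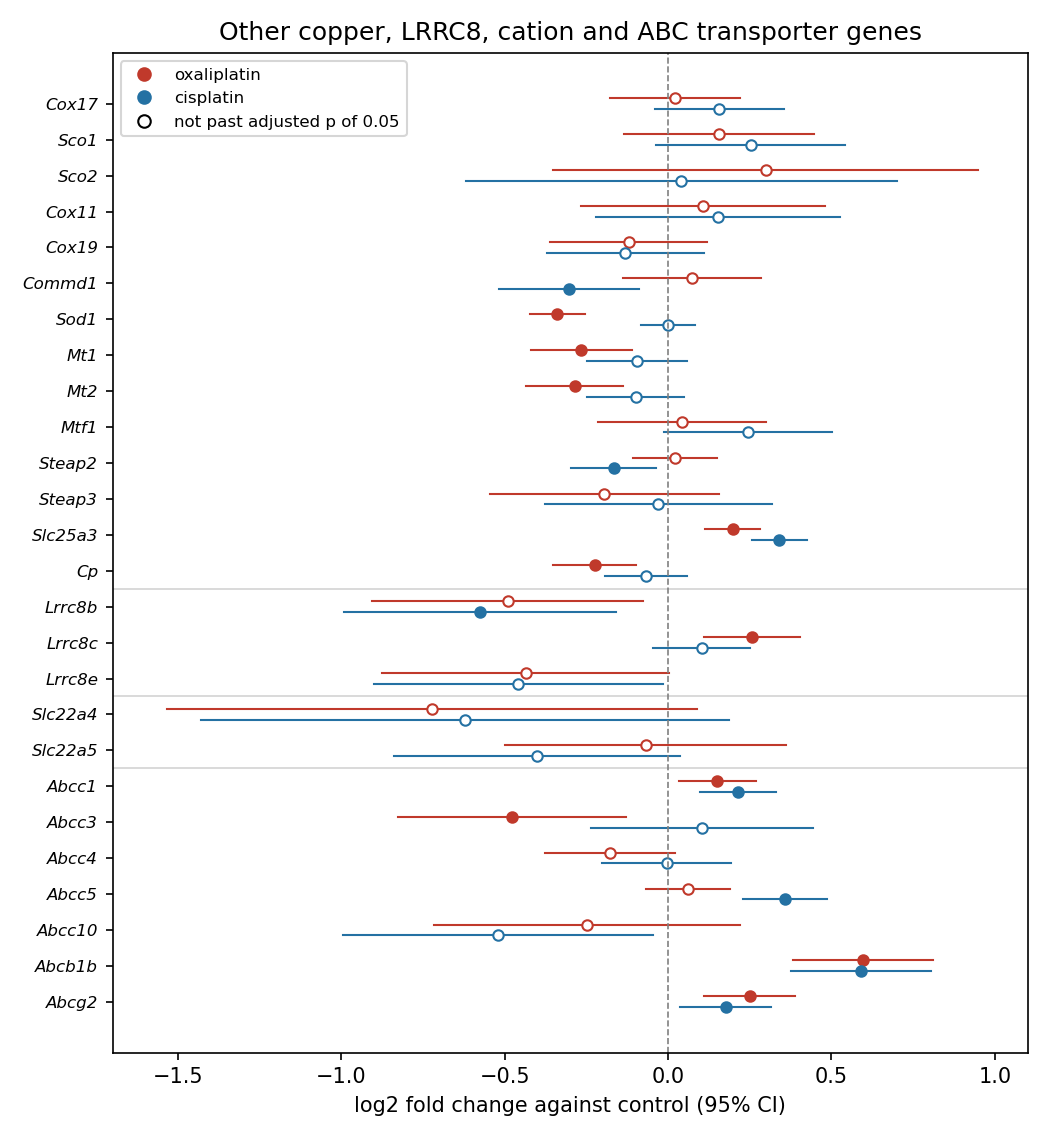
Log2 fold changes against control with 95% confidence intervals for the further tested genes with an adjusted p, grouped by list, filled where the adjusted p was under 0.05. Sod1 fell with oxaliplatin, Slc25a3 and Abcb1b rose with both drugs, and Abcc5 rose with cisplatin.

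Of the 7 organic cation carriers listed, from the families SLC22, SLC29 and SLC47, 2 could be tested and DESeq2 called 0 in any comparison. At an unadjusted p under 0.05 the count was 0. By edgeR 1 was called in oxaliplatin against control, 1 in cisplatin against control and 0 between the drugs. Over all 14956 genes tested edgeR called 4618 with oxaliplatin against control and 4773 between the drugs. In cisplatin against control the most calls under any alternative setting were 6112. Slc22a2, Slc47a1 and Slc47a2 had 0 counts in every library.

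The labelled cell type was compared with its markers. Of the prostate lineage genes, Pbsn was at 0 in every library and Hoxb13 reached 2.96 normalised counts. Keratin genes Krt8 and Krt18 had 95.2 to 169.6, Cdh1 369 to 573 and Epcam at most 1.97, while the mesenchymal genes Vim, Fn1, Col1a1 and Acta2 had at least 11122. Cdh1 rose with cisplatin (log2 fold change 0.53 ± 0.14 SE, adjusted p = 8.62e-04 by DESeq2). Of the mesenchymal genes, Vim and Acta2 rose and Col1a1 fell with oxaliplatin, and Vim rose and Fn1 and Col1a1 fell with cisplatin. The leukocyte genes Ptprc, Cd3e and Cd79a reached at most 2.94 and Cd68 30.7 to 50.0. Of the endothelial genes Cdh5 reached 1.02, Pecam1 7.84 and Kdr 62.7. Kdr had 24.9 and 20.7 normalised counts in control cells, 55.7 and 49.1 with oxaliplatin, and 62.7 and 50.1 with cisplatin, and it rose with both drugs (DESeq2 adjusted p = 0.0259 and 0.0109). The part of other cell types in the results was not tested.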

How the data were processed

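Libraries were grouped by their labels. The deposited values are the expected counts that the authors obtained per gene. The submitters' processing notes name STAR 2.5.3a, RSEM 1.3.0 and GRCm38.p6, while for in vitro RNA-seq the methods of the study name a different counter. The annotation release and strand setting of this table were not given in the sources used here. Of the identifiers, 54409 of 54446 matched GENCODE M21, which gave symbols and positions. Counts were rounded and a gene was kept if 2 or more libraries had 10 or more counts. DESeq2 1.42.0 (R 4.3.3) was fitted to all 6 libraries with group as factor, with Wald tests and a threshold of 0.05. Benjamini-Hochberg adjustment in each contrast ran over the genes left by independent filtering at 0.1. Of the 14956 genes tested, 2900 had no adjusted p with oxaliplatin against control, 1740 with cisplatin against control and 2900 between the drugs. The shares of all genes tested include these genes in their base. Normalised counts are counts divided by size factors (0.964 to 1.08), given as mean ± SD. Total counts were 21345312 to 24041767 per library. edgeR 4.0.16, other scalings and filters, a replicate block and leaving out each library were alternatives. The fit was also run on simulated counts whose changes were larger than that of Slc31a1. That run does not show how well changes of the sizes reported here are found. The genes and lists were chosen with earlier results of these data known. Named genes are the 10 genes, at most the 4 called genes of each list with the smallest adjusted p, and the 3 genes most like Slc31a1. Lrrc8e, the cation carriers with 0 counts and the genes named after their values were seen stand outside this rule. Promoter sequences are from RefSeq. Some prostate lineage markers are not reported here.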

Additional observations from a re-analysis of the deposited data

How the results depend on the processing

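With 2 libraries a group, small changes of low genes were not detectable, and a call near the threshold could rest on 1 library. The fall of Slc31a1 with oxaliplatin against control kept its direction and its call in all 14 alternatives. With edgeR, calls over all genes rose to 4618 in oxaliplatin against control and 4773 between the drugs. In cisplatin against control the most calls over all genes under any alternative were 6112. With edgeR the calls of the 10 genes rose to 3 in oxaliplatin and 1 in cisplatin against control. Those of the further list rose to 13 in oxaliplatin against control and to 13 in cisplatin against control. Between the drugs the most calls of the further list under any alternative were 9. With at least 10 counts in every library, 2 of the 10 genes were called in oxaliplatin against control. Leaving out 1 library gave 1213 to 2159 calls over all genes in oxaliplatin against control, 2089 to 3021 in cisplatin against control and 1184 to 2453 between the drugs. Over the 10 genes it gave 0 to 1 calls between the drugs, and over the further list 3 to 8, 4 and 2 to 6 calls in the 3 comparisons. The cause was not tested beyond the smaller number of libraries.

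Same-numbered libraries did not deviate together (correlations of deviations 0.07, -0.05 and -0.19), so the numbers were not taken as pairs. A replicate block gave 1958 calls over all genes in oxaliplatin against control, 1861 between the drugs, and 4 calls of the further list in cisplatin against control, without Lrrc8b, Abcg2, Commd1 and Steap2.

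Signs of changes near 0 turned. With total-count scaling the log2 fold change was -0.0076 for Atox1 with oxaliplatin, -0.036 for Lrrc8a with cisplatin and 0.021 for Lrrc8d between the drugs. Leaving out 1 library gave -0.068 to 0.19 for Atp7b, -0.066 to 0.085 for Atox1 and -0.056 to 0.16 for Ccs with oxaliplatin, -0.090 to 0.059 for Slc31a2 and -0.017 to 0.039 for Lrrc8a with cisplatin, and -0.22 to 0.051 for Atp7a and -0.061 to 0.035 for Lrrc8d between the drugs. With the longest coding transcript as length, chosen after the data were seen, control levels per kilobase were 352 for Slc31a1, 117 for Slc31a2, 82.8 for Atp7a, 566 for Ccs and 40.5 for Lrrc8d.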
